A study of Mus musculus with 9 samples.

Results

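Phox2a, Gata2, Gata3, Hand2, Isl1, Insm1, Tbx2 and Mycn encode transcription factors that work in sympathetic neuroblasts, the embryonic cells from which neuroblastoma arises. Binding of the glucocorticoid receptor (GR) and the mineralocorticoid receptor (MR) at these 8 genes, out of 21938 protein-coding genes on the assembled chromosomes, is described here. A peak was assigned to a gene when its summit, the base with the strongest enrichment, lay in the gene body or within 20 kb of it. By this rule 40 peaks of the 6 peak lists belonged to the 8 genes. The gene bodies were those of the GENCODE annotation on the mouse GRCm38 (mm10) assembly. The files hold binding sites and no expression values, so whether these cells transcribe the genes was not measured.

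The cells were Neuro2A (N2A), a mouse neuroblastoma line that the sample labels call neuroblasts. Every culture was transiently transfected with both eGFP-GR and mCherry-MR and kept in charcoal-stripped serum, and each receptor was precipitated through its fluorescent tag. Cells received vehicle for 20 minutes, 100 nM corticosterone (CORT) for 20 minutes, or the same CORT pulse followed by washing and 40 minutes without steroid (washout). ChIP-nexus is chromatin immunoprecipitation in which an exonuclease trims the recovered DNA up to the crosslinked protein. The authors joined the 3 replicates of each condition before calling peaks against input chromatin, which leaves 1 list per receptor and treatment. No value therefore has a replicate error, no comparison between lists could be tested, and 95% Wilson intervals on shares cover counting error only. The paper's methods describe rat receptors, while the deposited design text describes mouse receptors. Both came from plasmids, so receptor amounts were not those of the untransfected line, which has GR of its own and no MR according to the paper.

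CORT, the main glucocorticoid of rodents, activates both receptors, and MR holds it with the higher affinity. The activated receptors enter the nucleus and bind the glucocorticoid response element (GRE), a pair of inverted AGAACA half-sites with a spacer between them. In the developing sympathetic nervous system, PHOX2A acts early, HAND2 and GATA3 follow, and together with GATA2, ISL1 and INSM1 they switch on and maintain the noradrenergic program. In neuroblastoma these factors occupy each other's enhancers in a mutually reinforcing circuit to which TBX2 and the oncoprotein MYCN are also assigned.

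For GR the lists comprised 64 (vehicle), 10602 (CORT) and 246 (washout) peaks, and for MR 73, 14638 and 4885. The weakest listed peak had a −log10 p against input between 4.35 and 6.73, depending on the list. Depth per peak is not part of these files, so the absence of a peak says that none could be detected with the reads and cutoff behind that list. The −log10 p of a peak grows with depth. It is used here only to order peaks within their own list, where rank 1 is the strongest.

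None of the 8 genes had a GR or MR peak after vehicle, as for nearly all genes: 0.109% of protein-coding genes had one in each vehicle list. After CORT, GR peaks were found at 5 of the 8 genes against 26.3% of protein-coding genes, and MR peaks at 6 against 30.2%. After washout no member had a GR peak, where 1.02% of protein-coding genes had one, and 5 had an MR peak, where 14.3% did. The counts over protein-coding genes use the same window. The 8 genes and the further gene lists below were chosen with earlier results of these data known. Differences from the shares over all genes were not tested. In total 15 GR and 17 MR peaks were found after CORT and 8 MR peaks after washout.

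Binding was unevenly spread over the genes. Gata2 had 6 GR and 9 MR peaks after CORT and 1 MR peak after washout. Hand2 had 3 GR and 3 MR peaks after CORT and 2 MR peaks after washout. Tbx2 had 3 GR and 2 MR peaks after CORT and 3 MR peaks after washout. Those 3 genes held most of the peaks. Gata3 had 1 peak in each of the same lists, and Mycn had 2 GR peaks and 1 MR peak after CORT and none after washout. Insm1 had a single MR peak after CORT, Isl1 a single MR peak after washout, and Phox2a none in any list.

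**Figure D1:**
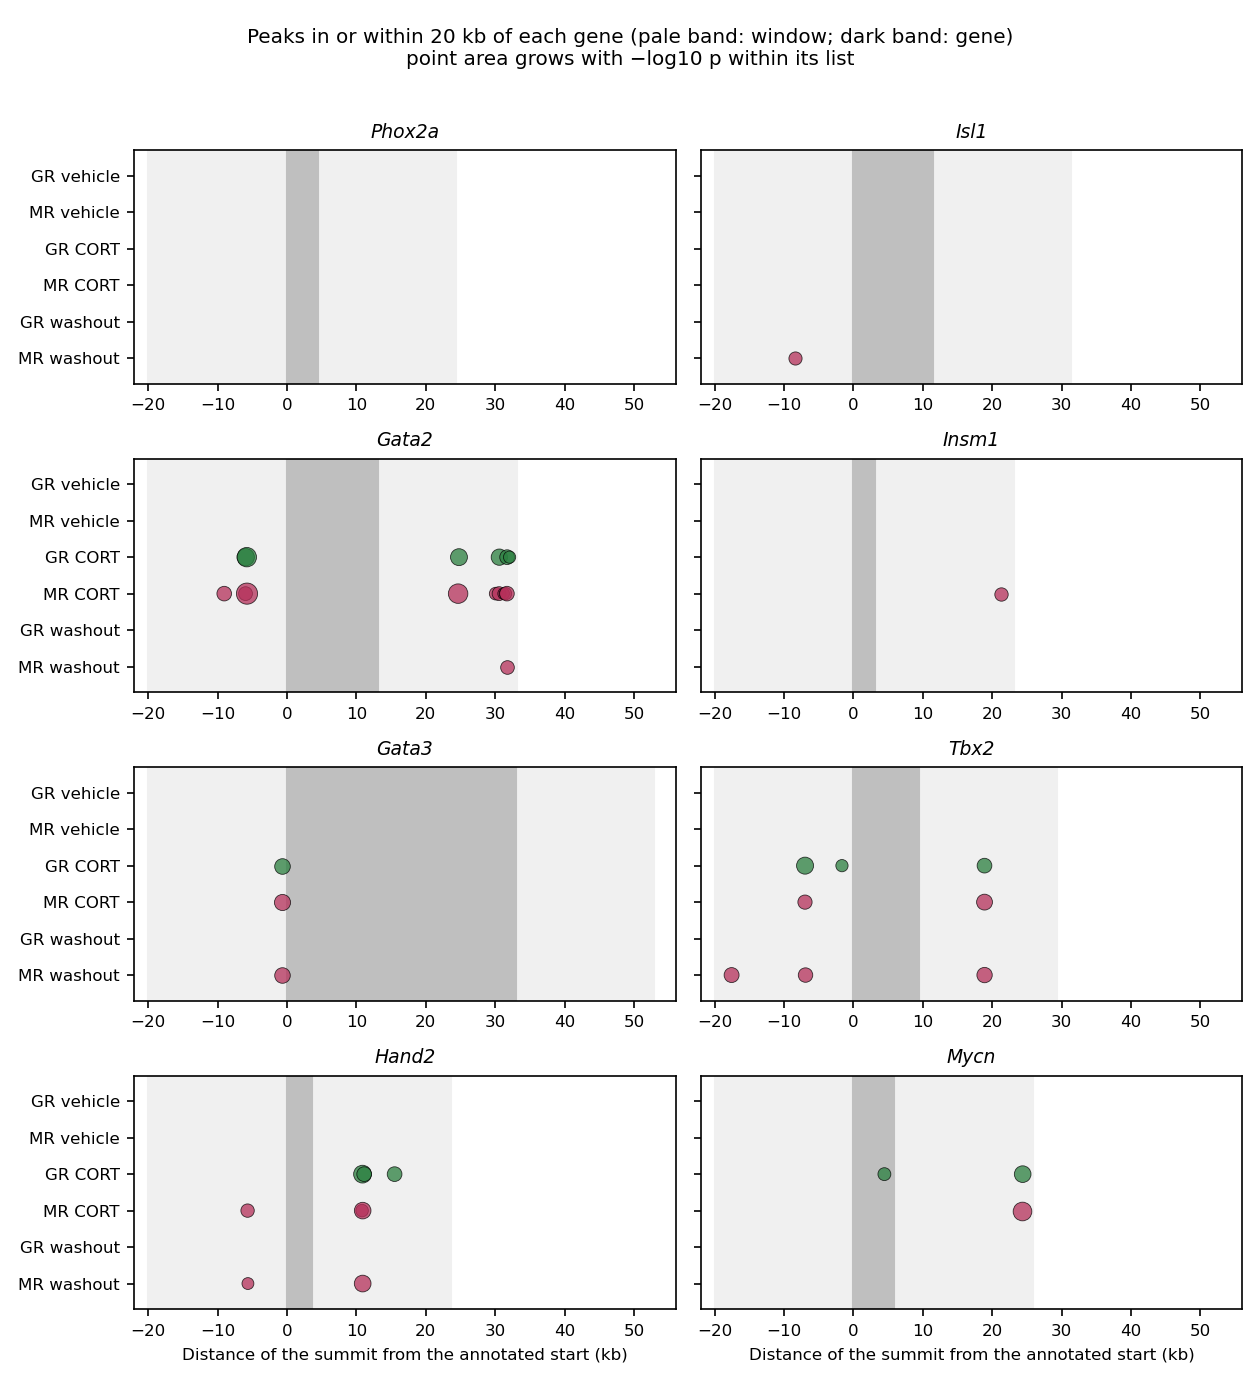
Position of each peak summit relative to the annotated start of its gene, in kb along the direction of transcription, with 1 row per peak list. Dark bands are gene bodies, pale bands the 20 kb on each side, green points GR, red points MR, and point area grows with −log10 p within the list. Most summits lie outside the gene bodies, Gata2 has the most, and the vehicle and GR washout rows are empty.

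The median over the 8 genes was 1.5 GR peaks and 1.0 MR peak per gene after CORT and 1.0 MR peak after washout, where the median of all protein-coding genes was 0 in each list. The means were 1.88, 2.12 and 1.0 peaks per gene for the members and 0.583, 0.767 and 0.25 for all protein-coding genes. The members are short genes, with a median length of 7.61 kb against 17.4 kb, so their windows are not wider than usual. Per length, the member windows held 37.1 GR and 42.1 MR summits per Mb after CORT and 19.8 MR summits per Mb after washout. The merged windows of all protein-coding genes held 5.86, 8.0 and 2.62 per Mb. The member windows are mostly flanks, while the merged windows include the bodies of long genes, so these densities are not matched for gene length. Counting only peaks whose nearest protein-coding start was that of the member left 10 GR and 10 MR peaks after CORT. Neighbouring peaks of a gene are not independent of each other, and a few genes with many peaks raise such a mean.

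GATA2 is a zinc finger factor that binds GATA sequences and is needed for differentiation of sympathetic neurons. Only 1.61% of protein-coding genes had at least 6 GR peaks after CORT and 1.1% had at least 9 MR peaks. The peaks formed 9 separate sites in 2 regions, one upstream of the gene and one beyond its end. The strongest site lay 5.8 kb upstream of the annotated start and carried both receptors after CORT. The GR peak there (chr6:88188048-88188158) had a −log10 p of 19.2 and rank 465 of 10602. The MR peak (chr6:88188066-88188161) had a −log10 p of 23.3 and rank 517 of 14638, with its summit 31 bp from that of GR. Measured from the second annotated start of Gata2 the site was 10.2 kb upstream.

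Beside it, at 5951 bp upstream, a second pair of peaks had a −log10 p of 14.7 for GR (rank 1144) and 8.54 for MR (rank 8663). An MR peak without a GR peak lay 9053 bp upstream, with a −log10 p of 9.82. None of the 3 upstream sites was overlapped by a washout peak of either receptor. They lay outside annotated genes, and Gata2 had the nearest protein-coding start.

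The downstream region of Gata2 began with a site shared by both receptors 24.7 kb from the start, 11.5 kb past the gene's end, where the MR peak had a −log10 p of 19.4 (rank 949) and the GR peak rank 1474. The GR and MR summits at this site were 126 bp apart, the widest gap of the 10 shared sites. Further sites followed between 30075 and 32075 bp, with −log10 p values from 6.15 to 12.8 for GR and from 5.31 to 9.82 for MR. These lie in introns of Dnajb8, a gene for a chaperone of the DNAJ family, and most also in introns of 1700031F10Rik. Here 11 of the 16 Gata2 peaks lay nearer to the start of Dnajb8 than to that of Gata2, so assigning them to Gata2 rests on the window alone. The only washout peak of Gata2, an MR peak with a −log10 p of 8.28, was in this region, 31700 bp from the start. It overlapped an MR CORT peak whose summit was 3 bp away and a GR CORT peak of 468 bp, the widest peak of the 8 genes.

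GATA3, the paralog of GATA2, is needed for noradrenergic differentiation of sympathetic neurons. Gata3 had 1 site, outside annotated genes, and it was called for both receptors after CORT and for MR after washout. The summits lay 764 bp (GR, CORT), 770 bp (MR, CORT) and 792 bp (MR, washout) upstream of the outermost annotated start. The GR peak had a −log10 p of 11.6 (rank 2285) and the MR peaks 12.5 after CORT (rank 3143) and 11.5 after washout (rank 1516). These 3 peaks were the only ones of the 40 within 1000 bp of the annotated start of their member gene. That start belongs to a transcript without a consensus coding sequence entry, and the site is 12.2 kb upstream of the start of the transcript that has one.

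The Gata3 site held the best GRE match of any member site after CORT. Its sequence (chr2:9890800-9890829, plus strand, RefSeq genome of the same assembly) is shown for that reason, with capitals at the bases that match the 12 fixed positions of the GRE (AGAACA, then a spacer of 3 bases of any kind, then TGTTCT, which reads the same on both strands).

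Gata3 site: tgccctgAGAACAggacGgTCccatcacta

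The first half-site matched in full and the second at 3 of 6 positions. The center of the match was 16 bp from the GR summit and 10 bp from the MR summit.

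HAND2 is a basic helix-loop-helix factor that maintains noradrenergic identity in sympathetic neurons. Hand2 had 4 sites, and 6.37% of protein-coding genes had at least 3 GR peaks and 8.85% at least 3 MR peaks after CORT. The leading site lay 10.9 kb from the start, downstream of the gene, in an exon of the noncoding RNA Gm34030. The GR peak there had a −log10 p of 15.7 (rank 861) and the MR peak 13.4 after CORT (rank 2537). After washout the MR summit at this site was 1 bp from its CORT position, with a −log10 p of 13.6 and rank 851 of 4885. This was the highest rank of the 8 washout peaks at the members. A weaker MR peak 10819 bp from the start had a −log10 p of 6.54.

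Upstream of Hand2, in an exon of the antisense transcript Hand2os1, an MR peak was called after CORT (5686 bp, −log10 p 7.83, rank 8979) and after washout (5637 bp, 5.65, rank 4778), with no GR peak. GR alone was called at 11117 and 15504 bp, each with a −log10 p of 9.99. This value was shared by 826 GR peaks, so it does not order them. Hand2 therefore had sites called for both receptors, for GR alone and for MR alone within 43.7 kb.

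TBX2 is a T-box factor that acts mainly as a repressor. Tbx2 had 4 sites, and 2.21% of protein-coding genes had at least 3 MR washout peaks. After CORT, 6.37% had at least 3 GR peaks and 15.6% at least 2 MR peaks. At 6978 bp upstream, in the UTR of the neighbouring gene Bcas3, the GR peak had a −log10 p of 14.2 (rank 1168) and the MR peak 9.17 (rank 6549) after CORT, and MR was called again after washout with 9.57. At 18.9 kb downstream of the start the GR peak had a −log10 p of 9.99 and the MR peak rank 3406 of 14638, and the MR washout peak had 11.1 (rank 1560). The start of the gene model Gm11444 is nearer to that second site, at 1107 bp from the MR summit. So both Tbx2 sites shared by GR and MR after CORT were also called for MR after washout. The MR washout summit lay 76 bp from the MR CORT summit at the upstream site and 7 bp at the downstream site. GR alone was called 1660 bp upstream, with a −log10 p of 6.15. MR alone was called 17567 bp upstream, in an intron of Bcas3, and only after washout, with 10.4.

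MYCN is a MYC family factor whose gene is amplified in aggressive neuroblastoma. The leading Mycn site lay 24.4 kb downstream of the start, 18.5 kb past the gene's end and outside annotated genes. The MR peak there had a −log10 p of 17.6 (rank 1311 of 14638) and the GR peak 13.5 (rank 1575 of 10602). Neither receptor was called there after washout, and the nearest MR washout summit was 86.4 kb from the gene. A second GR peak, 4455 bp from the start with a −log10 p of 7.1 (rank 8736), lay in the coding sequence of Mycn. It was the only one of the 40 peaks inside a member's gene body.

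INSM1 is a zinc finger factor of neuroendocrine cells. The single Insm1 peak, for MR after CORT, lay 21313 bp from the start, 18.2 kb past the gene's end and in the UTR of Ralgapa2, with a −log10 p of 7.83 (rank 8979). The nearest GR CORT summit was 32.7 kb from Insm1. ISL1 is a LIM homeodomain factor of sympathetic and motor neurons. The single Isl1 peak, for MR after washout, lay 8467 bp upstream, outside annotated genes, with a −log10 p of 7.52 (rank 3883 of 4885), and the nearest MR CORT summit was 49.4 kb from the gene. An MR washout summit without an MR CORT summit was found at 1.17% of protein-coding genes.

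PHOX2A is a homeodomain factor that binds the promoters of noradrenergic enzyme genes. Phox2a, like 64.4% of protein-coding genes, had no summit of any list in its window. The nearest was an MR CORT summit 21.4 kb from the gene, in an intron of Folr2, with a −log10 p of 11.1. It fell just outside the 20 kb limit, as did a GR CORT peak of Gata2 at 20.7 kb with a −log10 p of 7.57. With 50 kb on each side Phox2a had 4 GR and 7 MR CORT peaks, 2 MR washout peaks and 1 GR washout peak, so its lack of peaks holds for the 20 kb window and not for the wider one. No share of all protein-coding genes is given for 50 kb. The outermost peak kept was a GR CORT peak of Gata2 at 18.9 kb with 6.15.

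The 40 peaks merged into 22 sites. GR and MR were both called after CORT at 10 sites, GR alone at 5 and MR alone at 5, and the remaining 2 sites were the MR washout peaks at Isl1 and 17567 bp upstream of Tbx2. At the 10 shared sites the GR and MR summits lay 5 to 126 bp apart, with a median of 26 bp. An MR CORT peak overlapped 10 of the 15 GR CORT peaks (66.7%, 95% interval 41.7% to 84.8%), against 61.0% of the whole GR list. In the other direction 12 of the 17 MR CORT peaks (70.6%, 46.9% to 86.7%) were overlapped by GR, against 47.6% of the whole MR list. The GR share was close to that of its list. The MR share was higher than that of its list, but the lower end of its interval was just under the list value.

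Overlap was more frequent among stronger peaks, both at the members and in the whole list. Each list was divided into 5 groups of about equal size by −log10 p. All 7 member GR peaks in the strongest group of the GR list overlapped an MR peak, where 93.1% of that group did. In the next group 3 of 5 did (73.1% of all), and in the weakest 0 of 3 did (36.8% of all). The GR peaks without an MR partner were those at Gata2 32075 bp, Hand2 11117 and 15504 bp, Tbx2 1660 bp and Mycn 4455 bp.

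The 15 member GR peaks had a median percentile of 21.6 from the top of their list, ranging from 4.38 to 91.0, and 7 were in the top 20%. The 3 of them within 5 kb of their gene had percentiles of 21.6 (Gata3), 82.5 (Mycn, their median) and 91.0 (Tbx2). All 7 in the top 20% lay farther from their gene. The median −log10 p was 11.6 for the 15 GR peaks and 8.66 for the list. The MR CORT peaks had a median percentile of 48.8 (3.53 to 94.9), with 4 of 17 in the top 20%, and a median −log10 p of 9.17, the same as their list. The only MR CORT peak within 5 kb of its gene, at Gata3, had a percentile of 21.5. The MR washout peaks had a median percentile of 44.1 (17.9 to 97.8). The lists differ in length and depth, so the percentiles of GR and MR are not on a common scale.

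**Figure D2:**
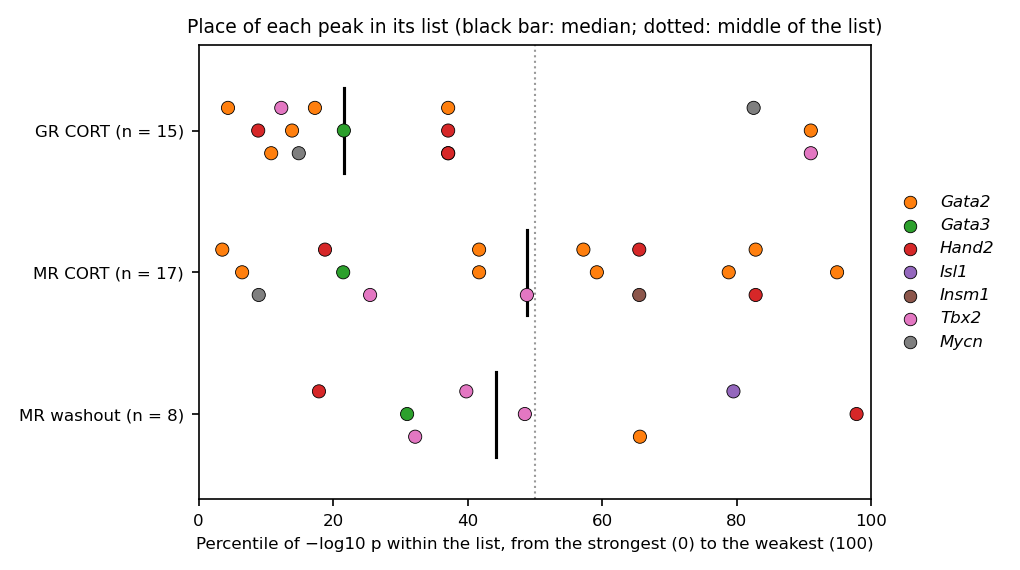
Percentile of each member peak in its own list by −log10 p, from the strongest at 0 to the weakest at 100, colored by gene. Black bars are medians, at 21.6 for GR CORT, 48.8 for MR CORT and 44.1 for MR washout, and the dotted line is the middle of a list.

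After washout, no GR CORT peak (0 of 15, interval 0% to 20.4%) overlapped a GR washout peak, and 2.13% of the whole GR list did. For MR, 7 of 17 CORT peaks (41.2%, 21.6% to 64.0%) overlapped an MR washout peak, against 24.6% of the whole MR list, whose value lies inside the interval. Gata2 contributed 1 of its 9 MR CORT peaks, and the other genes 6 of 8 (75.0%). The split by Gata2 was made after its values were seen. A single MR washout peak of Hand2 overlapped both MR CORT peaks downstream of that gene. With summits required to lie within 50 bp, the share was 5 of 17 (29.4%, 13.3% to 53.1%). The share of the whole list was not computed for that limit. Seen by gene, at least 1 MR CORT site was called again after washout at Gata2, Gata3, Hand2 and Tbx2, and none at Mycn and Insm1. Having an MR CORT peak and no MR washout peak in the window, as these 2 of 6 genes did, was the case for 56.7% of all genes with an MR CORT peak.

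In the whole MR list, weaker CORT peaks were overlapped by washout peaks less often, from 60.4% in the strongest of the 5 groups to 26.4%, 16.6%, 11.5% and 7.5% in the others. The member peaks did not follow that order. Of the 4 in the strongest group, the pair at Gata2 (5769 bp upstream and 24658 bp downstream) and the one at Mycn were not overlapped, and only Hand2 10902 bp was. In the next group both were overlapped (Gata3 and Tbx2 18889 bp), and in the 3 weaker groups 2 of 5, 1 of 3 and 1 of 3 were. The 1 in the weakest group, Hand2 10819 bp, was overlapped by the same washout peak as Hand2 10902 bp. The counts are small and come from linked sites, and the difference from the list was not tested.

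**Figure D3:**
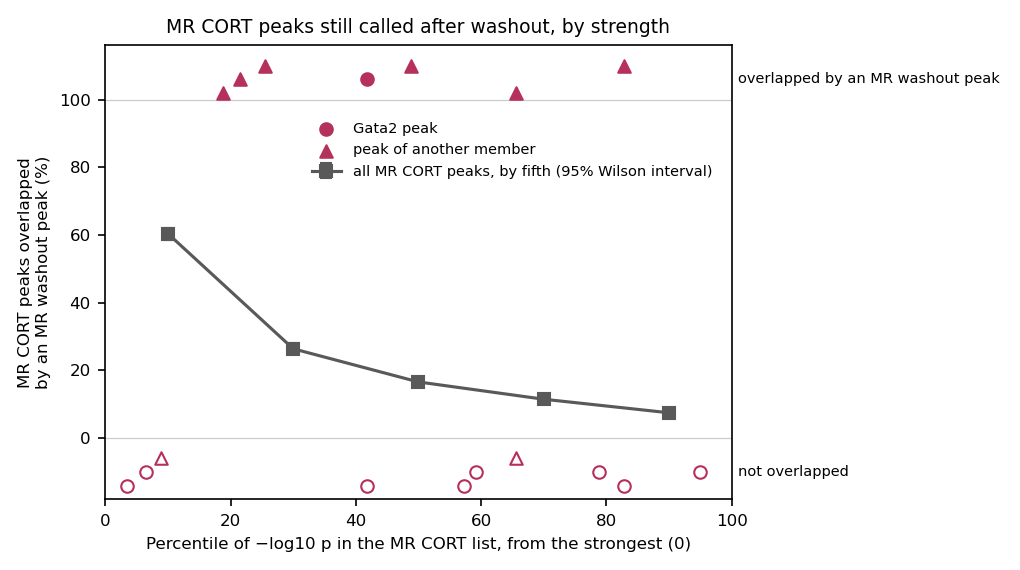
Grey squares give the percentage of all MR CORT peaks overlapped by an MR washout peak in each of 5 groups by −log10 p, from the strongest at left, with 95% Wilson intervals. Each member peak is drawn at its own percentile, filled and above the 100% line when overlapped, open and below the 0% line when not, with circles for Gata2 and triangles for the other genes. The 3 strongest member peaks are open, and the filled points begin with the Hand2 peak at a percentile of 18.8.

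Of the 8 MR washout peaks, 6 (75.0%, 40.9% to 92.9%) overlapped an MR CORT peak and 5 a GR CORT peak (62.5%, 30.6% to 86.3%), against 75.7% and 65.6% of all MR washout peaks. Seen from GR, 5 of the 15 CORT peaks (33.3%, 15.2% to 58.3%) overlapped an MR washout peak, against 28.2% of the list. These were sites of both receptors after CORT, at Gata2 31700 bp, Gata3, Hand2 10903 bp and both shared Tbx2 sites.

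A close match to the GRE, with 3 or fewer of the 12 fixed positions mismatched, was found within 100 bp of the summit at 1 of 15 GR CORT peaks (6.67%, 1.19% to 29.8%) and 1 of 17 MR CORT peaks (5.88%, 1.05% to 27.0%), in both cases the Gata3 site. In the whole lists 37.7% of GR and 39.9% of MR peaks had such a match, which is above both intervals. Windows 1000 bp to each side of the member summits had one in 4 of 30 cases for GR and 5 of 34 for MR. Several of these peaks lie at the same locus, and GR and MR peaks of a shared site cover much the same DNA. The intervals take no account of this, and the GR and MR shares are not separate results. The count depended on the limits. Within 200 bp of the summit, 4 of 15 GR peaks (26.7%, 10.9% to 52.0%) and 3 of 17 MR peaks (17.6%, 6.19% to 41.0%) had such a match, against 48.7% and 51.4% of the lists, and the GR list value then lies inside the interval. For peaks within 50 kb of the genes the shares were 6 of 26 (23.1%) and 7 of 35 (20.0%). Leaving out Gata2, a choice made after its values were seen, gave a GR share of 11.1% (1 of 9, interval 1.99% to 43.5%). The MR share was then 12.5% (1 of 8, interval 2.24% to 47.1%). The list values of 37.7% and 39.9% lie inside these wider intervals, so the shortfall against the lists rests partly on Gata2. With at most 4 mismatches, a match was present at 12 of 15 GR and 13 of 17 MR peaks (80.0% and 76.5%), near the 79.0% and 82.1% of the lists. The GR flanks, at 36.7%, lay below the interval of the GR share (54.8% to 93.0%). The MR flanks, at 52.9%, lay just inside the interval of the MR share (52.7% to 90.4%).

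**Figure D4:**
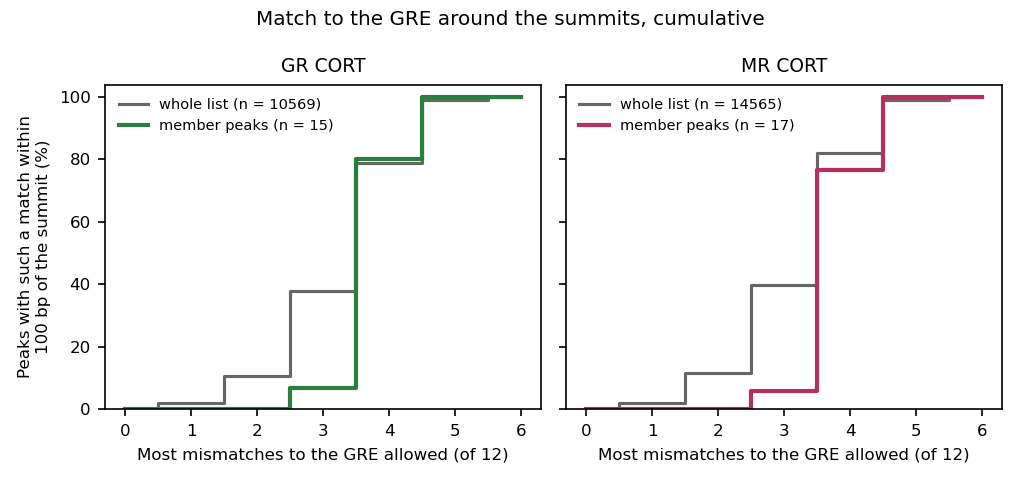
Cumulative percentage of CORT peaks whose best GRE within 100 bp of the summit has at most the number of mismatches on the horizontal axis, out of 12 fixed positions, for GR at left and MR at right. Colored lines are the member peaks and grey lines the whole lists, which are apart at 2 mismatches (0% against 10.5% for GR), farther apart at 3 (6.67% against 37.7%) and close at 4 (80.0% against 79.0%).

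The best matches of leading sites at 4 more genes show how they miss the consensus. They are printed in plus-strand orientation, with capitals as for Gata3, and were added after their values were seen. The Gata2 site is chr6:88188119-88188148, 5.8 kb upstream, Hand2 is chr8:57331848-57331877, Tbx2 is chr11:85851427-85851456, 18.9 kb downstream, and Mycn is chr12:12917560-12917589.

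Gata2 site: agccactgGtACtcagTGTTCctgatctaa

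Hand2 site: ttcgaggAGtgCAggcTGTgCagaagatca

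Tbx2 site: atgcaccAGgACAgaaaGTcCcagctattg

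Mycn site: ctagatggGcACAgtcTGTTtcctgctctc

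All 4 matched 8 of the 12 positions. The Tbx2 sequence is from the strongest MR CORT site of the gene, where 2 positions matched equally well and the one nearer to the summit is shown. The strongest GR CORT site of Tbx2, 6978 bp upstream, also had 4 mismatches. The first and second half-sites matched at 3 and 5 positions at Gata2, at 5 and 3 at Tbx2, and at 4 each at Hand2 and Mycn. The Isl1 washout site (chr13:116318156-116318185) was the other member site with 3 mismatches, so MR washout peaks had a GRE in 2 of 8 cases (25.0%) against 45.5% of their list. With at most 4 mismatches 7 of the 8 had one (87.5%), against 83.5%.

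Isl1 site: ttctcctgGcACAgtgTGTcCTtaagaggg

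A full AGAACA half-site on either strand lay within 100 bp of the summit at 3 of 15 GR (20.0%) and 4 of 17 MR peaks (23.5%), against 32.5% and 34.2% of the lists, and at 2 of 8 MR washout peaks (25.0%) against 35.0%. Because Gata2, Gata3 and Phox2a are members, their own motifs were counted as well. AGATAA on either strand, the GATA motif, was near 2 of 15 GR peaks (13.3%, 3.74% to 37.9%) and 3 of 17 MR peaks (17.6%, 6.19% to 41.0%), against 11.5% and 12.6% of the lists, and near 1 of 8 MR washout peaks (12.5%) against 15.8%. These sites were Hand2 11117 bp and the Mycn 24.4 kb site for GR, and Hand2 5686 bp upstream, Insm1 and the Mycn site for MR. The Phox2a consensus with at most 1 mismatch was found once in each list (6.67% and 5.88%, against 3.3% and 3.85%), at the Gata2 site 5951 bp upstream, and at 0 of 8 MR washout peaks (5.41% of that list). A match is a stretch of letters, not evidence that the factor was there.

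The border pairs, stretches between the points where the exonuclease stopped on opposite strands, added little at these genes. A single member peak site was touched by a border pair of MR after CORT, at Gata2 24642 bp, 78 bp long with a p-value of 0.000357. That is 1 of the 17 MR CORT peaks (5.88%), against 10.4% of the list. No MR washout peak of the members was touched, against 9.87% of the list, and the GR lists had no border pair in the member windows. The GR CORT list of border pairs used here held 139 pairs in all, against 3285 for MR CORT, so few could fall near 8 genes. It is shorter than the list the paper describes, and the reason is not known here. An MR vehicle pair at Gata3, an MR washout pair at Gata3 and another at Isl1, and an input vehicle pair at Gata3 touched no peak.

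The median width of the member peaks was 111 bp for GR CORT (81 to 468), 96 bp for MR CORT (34 to 243) and 73 bp for MR washout (44 to 180). The medians of the whole lists were 121, 62 and 70 bp.

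Other genes of the lineage were counted with the same window. After CORT, 8 of 15 further transcription factor genes carried GR and 10 carried MR, and 6 carried MR after washout (26.3%, 30.2% and 14.3% of protein-coding genes), with none in the vehicle and GR washout lists. Zfhx3, a large homeodomain and zinc finger factor gene, had 5 GR and 10 MR peaks after CORT and 6 MR washout peaks. Klf7, for a Krüppel-like factor, had 4, 7 and 1, and Meis1, for a TALE homeodomain factor, had 2, 3 and 1. Prox1, Sox4 and Tfap2b were among the genes with no peak in any list.

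Among 9 genes of the noradrenergic phenotype, GR was called at 7 and MR at 8 after CORT, and MR at 5 and GR at 1 after washout (26.3%, 30.2%, 14.3% and 1.02% of protein-coding genes). Ddc, for the decarboxylase that makes dopamine, had 5 GR and 8 MR peaks after CORT, 4 MR washout peaks and the GR washout peak. Slc18a2, for the vesicular monoamine transporter VMAT2, had 9 GR and 7 MR peaks after CORT and none after washout. Ret, for the receptor of the GDNF family, had 6 and 5 and none after washout. Chgb, for a granin of secretory granules, had none in any list. Both longer lists thus hold genes with CORT peaks only, like Mycn, and genes with MR washout peaks, like Hand2.

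By peak counts over the 6 lists, the protein-coding genes most like Gata2 were Gucd1 and Immp2l, with the same counts, and Casz1, with 1 GR CORT peak fewer. In all, 13 genes differed from Gata2 by at most 1 peak. These counts take no account of gene length, so equal counts do not mean equal density of peaks.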

How the data were processed

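Values come from 6 deposited lists of MACS2 peaks and 9 deposited lists of MACE border pairs from 9 samples, which include the input of each treatment. The authors trimmed reads, aligned them to mm10 with Bowtie2, removed duplicates by random barcode, filtered on mapping quality and ran MACS2 2.1.1.20160309 on joined replicates at a false discovery rate of 0.05. In the deposited peak lists the score is derived from −log10 q, column 6 holds −log10 p, and −log10 q stands under a fold enrichment heading. The p-value of a border pair is as the authors deposited it, and the GR CORT list of border pairs has none. Fold enrichment is not used here, since no column holds it.

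Summits were assigned to GENCODE M21 genes (body plus 20 kb), overlap meant at least 1 bp, ties in −log10 p shared a percentile, and motifs were sought within 100 bp of summits, at most 3 mismatches for the GRE and at most 1 for the Phox2a consensus. Sequence came from the RefSeq GRCm38.p6 genome, read with pysam 0.24.0 and samtools 1.23.1. Python 3.11.15, numpy 2.4.6, pandas 2.3.3 and matplotlib 3.10.9 were used. Overlap, window and motif code was tested on simulated data. The members and lists were chosen with earlier results of these data known. The genes named are all members, the 3 genes with most MR CORT peaks and those without peaks in the other lists, genes holding member peaks, and the 3 genes most like Gata2. Of the genes holding member peaks, 2610027K06Rik at Tbx2 and 5033428I22Rik at Hand2 are named only here. Some genes of the further lists are counted but not reported by name here. Sequences were printed by rule for matches with at most 3 mismatches at leading CORT sites. The sequences of Gata2, Hand2, Tbx2, Mycn and the Isl1 washout site were added outside that rule. Alternatives changed the window, the −log10 q minimum, the overlap, the gene assignment and the motif limits.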

Additional observations from a re-analysis of the deposited data

How the results depend on the processing

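Window size set most values. Shares of all protein-coding genes with a peak are given for the 20 kb window only. The counts below therefore do not show whether the members stand above other genes at other settings. With 5 kb on each side, 3 GR and 1 MR peaks remained after CORT, at 3 genes and 1 gene, and 1 MR peak at 1 gene after washout. With 50 kb there were 26 GR and 35 MR CORT peaks and 1 GR washout peak at 1 gene. In gene bodies only, 1 GR CORT peak at 1 gene and 0 MR peaks at 0 genes were left in either MR list. A −log10 q of at least 5 left 9 MR CORT peaks and 5 MR washout peaks, the latter at 3 genes, and counting only the nearest protein-coding start left 10 MR CORT peaks. At 5 kb the few peaks left gave an MR CORT share overlapped by MR washout of 100.0%, a GR CORT share overlapped by MR CORT of 33.3% and the reverse of 100.0%, GRE shares of 33.3% (GR) and 100.0% (MR), and a median GR percentile of 82.5. The MR CORT share overlapped by GR was 88.9% with a −log10 q of at least 5 in both lists. Without Gata2, an alternative chosen after seeing the data, the MR washout share was 75.0%. GRE shares were 0.0% for both receptors with at most 2 mismatches, where the whole lists had 10.5% (GR) and 11.5% (MR), and 80.0% (GR) and 76.5% (MR) with at most 4. Of the counts above 0 in either setting, 18 stayed within 1.5 times the value given and 20 did not. Of the shares and ranks, 32 lay inside the wide interval of the value given and 12 outside it. Inside that interval GRE shares still varied up to 26.7%. The other 34 unchanged counts were 0 in both settings. No paired analysis was possible because the lists used here were called on joined replicates. Calls per replicate were not analysed here. Depth per list limits which weak sites are listed, and short lists such as GR washout may miss sites.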
